A study of Saccharomyces cerevisiae with 30 samples.

Results

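The 56 genes described here carry the systematic prefixes of ribosome assembly in budding yeast. They are the Saccharomyces cerevisiae genes whose symbol on the array platform is UTP, NOP, NOC or RRP followed by digits and an optional letter, and they make up 56 of the 5449 genes measured. There were 18 UTP, 17 NOP, 3 NOC and 18 RRP genes, each read by 1 probe set. Transcripts were measured on 30 arrays, 1 per culture, in strain S288C grown at 30 °C in buffered minimal dextrose medium. E9591 (eupolauridine-9591) was given at 0.053 µM and LMT (liriodenine methiodide, spelled liriodinine in the design) at 2.6 µM, in a short exposure of about 4 h and a long one of about 15 h. The chelators of metal ions BIPR (2,2'-bipyridyl, 65.9 µM) and PHEN (1,10-phenanthroline, 6.2 µM) were given for about 4 h and stood for iron deficiency in the design. Every compound was used at its own IC50, so the doses differ. Control cultures received DMSO at 0.25%, in 4 groups: a 4 h group beside E9591, a 4 h group beside LMT, a 4 h group shared by BIPR and PHEN, and a 15 h group shared by E9591 and LMT. Each of the 10 groups held 3 cultures. Cultures were treated at an optical density of 0.2 and taken at 0.5, after about 4 h, and the long exposure covered 4.5 doublings.

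Ribosome assembly starts in the nucleolus on the long precursor RNA made by RNA polymerase I. UTP proteins, the snoRNPs (small nucleolar RNA-protein particles that guide RNA modification and cleavage) and other factors fold and cut the part that becomes the small subunit. Most NOP and NOC proteins and several RRP proteins act on the large subunit, and other RRP proteins are subunits of the exosome, which trims the RNA from its 3′ end. In growing yeast these genes are known to be transcribed together and to be repressed when growth slows or stress sets in.

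Values are log2(intensity + 1) of arrays that had been scaled to a common mean. A change is the mean of a treated group minus that of its own DMSO group (n = 3 each), given ± the standard error from the fit. A call means a Benjamini-Hochberg adjusted p below 0.05 in limma over 5429 genes. All 56 genes were tested and lay above the background floor on all 30 arrays. The SD of the difference between 2 arrays of one group, over tested genes, was 0.180 to 0.387. The 2 highest of these, 0.387 and 0.355, both involved replicate C of the DMSO group beside the chelators, so chelator results are also given without it. A level is a share of the RNA of a whole culture, so fewer cells with a transcript and less transcript per cell cannot be told apart. S288C is an alpha strain, and 4 alpha-specific genes lay above the floor on all 30 arrays, but so did all 6 genes specific to a cells, so these markers did not separate the mating types.

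Against their own DMSO groups, treated cultures differed less in the median over the 56 genes at 4 h than at 15 h. Relative to each gene's mean over the 12 DMSO arrays, the array medians lay between 0.29 and 0.31 in DMSO beside E9591 and between 0.10 and 0.17 with E9591 at 4 h. They lay between 0.24 and 0.38 in DMSO beside the chelators, between -0.00 and 0.13 with BIPR and between 0.03 and 0.07 with PHEN. Each of these 3 treated groups lay wholly below its own DMSO group. In DMSO beside LMT the medians were 0.76 to 0.91, and with LMT at 4 h they were 0.73 to 0.87, so these groups overlapped, and both lay above every other 4 h array. At 15 h the order was wide and without overlap: -1.50 to -1.25 in DMSO, -0.49 to -0.34 with LMT and 0.78 to 1.02 with E9591.

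**Figure D1:**
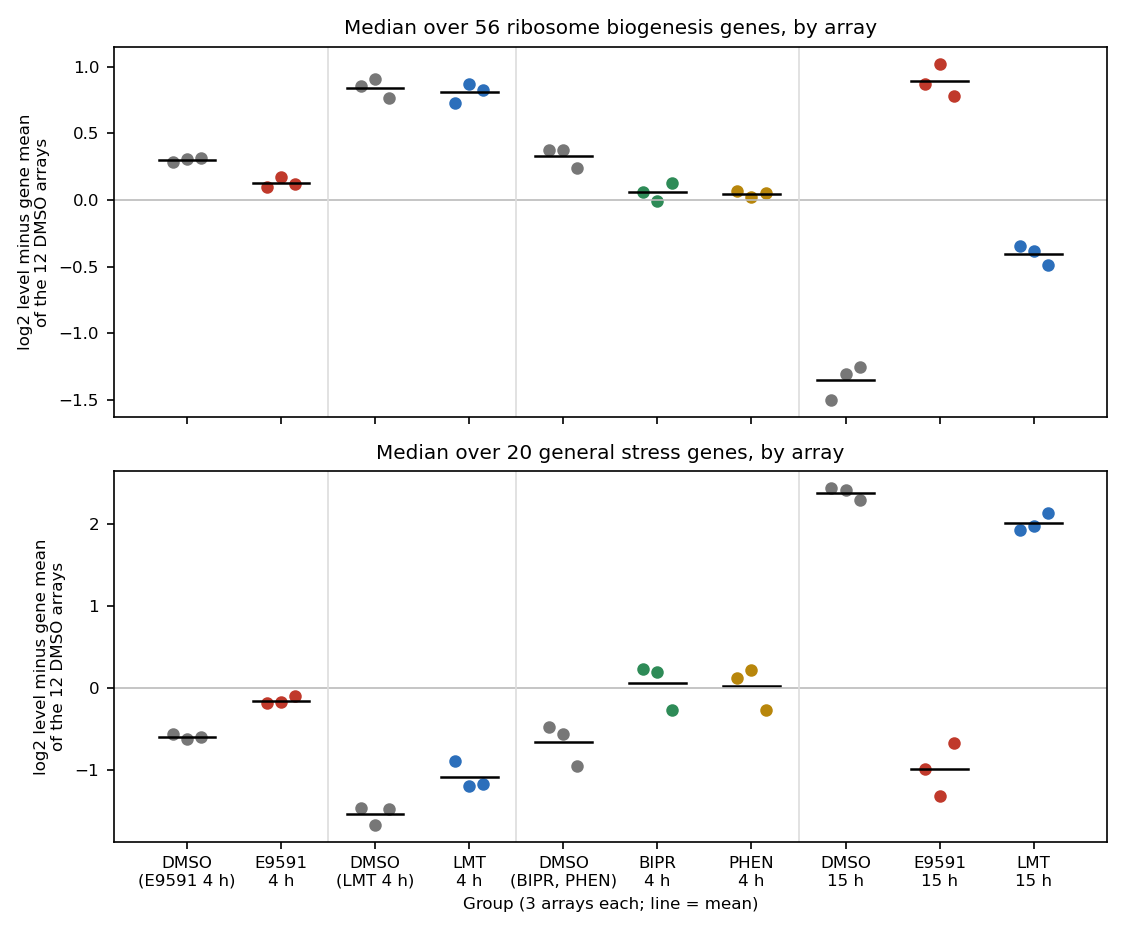
Each point is 1 array and each line the mean of a group of 3; the vertical axis is the median log2 level over the 56 ribosome biogenesis genes (top) or 20 general stress genes (bottom), relative to each gene's mean over the 12 DMSO arrays. In the top panel the DMSO arrays at 15 h lie between -1.50 and -1.25 and the E9591 arrays at 15 h between 0.78 and 1.02.

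Both chelators lowered about the same share of the set at 4 h. With BIPR 31 of the 56 genes fell and 1 rose, against 18.5% of all tested genes called lower and 27.7% called higher. With PHEN 29 fell and 0 rose, against 19.7% and 29.2% of all tested genes. The median change was -0.31 with BIPR and -0.30 with PHEN, beside 0.04 and 0.05 over all tested genes. Without replicate C of their DMSO group the falls numbered 34 and 30, with medians of -0.34 and -0.34. Over all arrays left out singly they numbered 27 to 34 with BIPR and 21 to 30 with PHEN, and 25 of the 31 and 18 of the 29 held without any 1 array. No gene of the set fell 2-fold with either chelator.

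The UTP-A and UTP-B complexes, the first proteins to bind the precursor RNA, had few calls with the chelators in arrays as deposited, a count that followed the scaling. With BIPR 1 of 6 UTP-A genes fell and 1 of 4 UTP-B genes, and with PHEN 2 of 6 and 0 of 4. Under quantile scaling, and likewise after centring each array on its median, 4 of 6 and 2 of 4 were called lower with each chelator. UTP9 was lower with both, by 0.44 ± 0.10 and 0.48 ± 0.10. UTP18, a UTP-B protein that brings in the exosome's helicase, differed by -0.01 ± 0.07 with BIPR, with a 95% interval of -0.16 to 0.14. Of 5 snoRNP genes 4 fell with BIPR and 5 with PHEN. Of these, the calls of NOP1 and NOP58 with BIPR, and of NOP1, NOP56, NOP58 and RRP9 with PHEN, were each lost without some 1 array. NOP58, a core protein of box C/D snoRNPs, changed by -0.45 ± 0.16 and -0.43 ± 0.16. Its DMSO levels were 12.99, 13.07 and 13.40, those with BIPR 12.74, 12.72 and 12.64, and those with PHEN 12.73, 12.75 and 12.70. The treated arrays all lay below the DMSO arrays, but both calls were lost without DMSO replicate C, where the changes were -0.33 and -0.30, and also without BIPR replicate C (-0.42) and without any 1 PHEN array (-0.41 to -0.44).

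Among the other small-subunit factors 12 of 18 fell with BIPR and 9 of 18 with PHEN. UTP14, which activates the helicase that removes the U3 snoRNA, stood lowest with both chelators. Its level was 10.62, 10.66 and 10.47 in DMSO, 9.70, 9.69 and 9.65 with BIPR, and 9.61, 9.67 and 9.80 with PHEN. Neither treated group overlapped the controls, and the changes were -0.91 ± 0.06 and -0.89 ± 0.06 (limma adjusted p = 2.34e-11 and 3.35e-11). RRP36, which acts in early cleavages of the precursor, changed by -0.70 ± 0.18 and -0.52 ± 0.18. RRP3, a DEAD-box RNA helicase, changed by -0.56 ± 0.07 and -0.60 ± 0.07. NOP6 changed by -0.56 ± 0.06 and -0.58 ± 0.06. NOP19 was not called with either, at -0.07 and 0.02.

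Large-subunit factors fell in 12 of 16 cases with each chelator, with medians of -0.38 and -0.36. NOP16, a component of early large-subunit particles, was at 10.78, 10.68 and 10.53 in DMSO, 9.98, 9.93 and 10.02 with BIPR, and 10.05, 10.03 and 10.04 with PHEN. Both treated groups lay below every DMSO array, by 0.69 ± 0.07 and 0.62 ± 0.07. RRP14 changed by -0.68 ± 0.10 and -0.63 ± 0.10. RRP8, a methyltransferase of the large-subunit RNA, changed by -0.66 ± 0.12 and -0.63 ± 0.12. RRP17, a 5′ exonuclease, fell by 0.85 ± 0.23 with BIPR and was not called with PHEN, at -0.36 ± 0.23. The difference between those effects was 0.48 ± 0.23, with an adjusted p of 0.914, and RRP17 was the widest of all 56.

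Exosome medians lay nearest 0, at -0.04 with BIPR and -0.08 with PHEN. Of its 7 genes RRP6, the nuclear exonuclease, fell with both chelators (-0.29 ± 0.06 and -0.32 ± 0.06), and RRP40, an RNA-binding cap subunit, rose with BIPR by 0.29 ± 0.08. RRP40 was at 11.40, 11.41 and 11.08 in DMSO and at 11.56, 11.51 and 11.70 with BIPR. The BIPR arrays lay above all DMSO arrays, but without DMSO replicate C, the lowest, the change was 0.19 and not called. With PHEN it was 0.20 ± 0.08 (adjusted p = 0.0547). RRP4, RRP42, RRP43, RRP45 and RRP46 stayed uncalled with both, between -0.14 and 0.08. With quantile scaling or centring 3 exosome genes were called lower with BIPR and 4 with PHEN. Outside the exosome UTP5 stayed uncalled as well, at -0.03 with BIPR and 0.00 with PHEN.

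No gene of the set separated BIPR from PHEN at the threshold. In PHEN minus BIPR 0 of 56 genes were called in limma, against 0% of all tested genes, and 1 had an unadjusted p under 0.05. For 54 of 56 the 95% interval of the difference lay within 1.5-fold. The median difference was 0.02, a value that turned to as low as -0.0076 in 3 other settings, with bounds of the intervals between -0.41 and 0.96.

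With E9591 at 4 h the set also shifted down. In arrays as deposited the median shift was smaller than with the chelators, which had a separate experiment. That difference followed the scaling: after centring the medians were -0.35 with E9591, -0.39 with BIPR and -0.39 with PHEN. Of the 56 genes 17 fell and 1 rose, against 11.3% of all tested genes called lower and 32% called higher, and the median was -0.19 beside 0.09. The calls depended on single arrays: 7 of the 17 falls held without any 1 of the 6 arrays, and 10 or 11 were called without treated replicate A or B. They also depended on scaling, since centring each array on its median, which shifts every gene of this contrast by -0.16, gave 38 falls and 0 rises. Arrays did not overlap, treated below DMSO, for 31 of the 56 genes (55.4%), against 22.3% of tested genes.

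Few UTP-A, UTP-B or snoRNP genes passed the test with E9591 at 4 h, 1 of each group (UTP5, UTP13 and NOP10). These counts followed the scaling: they were 2, 3 and 4 after centring and 2, 2 and 0 with quantile scaling. Of the other small-subunit factors 5 of 18 fell: UTP14, UTP23, NOP6, NOP14 and RRP5. NOP6 was at 11.44, 11.36 and 11.41 in DMSO and at 11.00, 11.04 and 11.08 with E9591. The groups did not overlap, and the fall was 0.36 ± 0.06 (adjusted p = 3.68e-05). UTP14 changed by -0.33 ± 0.06.

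Large-subunit factors held the other 9 falls, of 16 genes. NOP13, an RNA-binding nucleolar protein, was lowest of all at -0.37 ± 0.09, followed by NOP16 at -0.37 ± 0.07. NOP15, needed for processing of the 27S precursor, changed by -0.35 ± 0.07. RRP15 changed by -0.35 ± 0.13, a call lost without 5 of the 6 arrays. No exosome gene was called lower in arrays as deposited, but 3 were after centring and 1 with quantile scaling. RRP4 rose by 0.18 ± 0.07 (adjusted p = 0.046), from 10.67, 10.58 and 10.63 to 10.81, 10.87 and 10.76. These arrays did not overlap, but the call was lost without any 1 of the 6 arrays. The other highest values were uncalled: RRP42 at 0.13, NOP19 at 0.06, and RRP46 and UTP15 at 0.04.

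LMT at 4 h split the set. It lowered 12 of the 56 genes and raised 10, against 25.2% and 40.4% of all tested genes, with a median of -0.08 beside 0.10. Both shares were below those of all genes. Large-subunit factors had 8 falls and 0 rises. UTP-A had 3 rises and 0 falls, and UTP-B 1 and 0. The other small-subunit factors had 3 of each (NOP6, NOP14 and RRP5 lower, UTP22, RRP3 and NOP19 higher), snoRNP proteins 1 fall, and the exosome 3 rises. These differences between roles were not tested. Centring of arrays shifts this contrast by -0.20 for every gene, which gave 33 falls and 3 rises in the set, and those 3 were UTP10, RRP42 and NOP19. After it UTP-A had 3 genes lower and 1 higher, and UTP-B 1 lower.

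UTP10, a UTP-A protein, was at 11.33, 10.89 and 11.14 in DMSO and at 11.53, 11.79 and 11.56 with LMT. All LMT arrays lay above all controls, and it rose by 0.51 ± 0.08 (adjusted p = 3.68e-06). UTP22, of the UTP-C complex, rose by 0.50 ± 0.15, UTP9 by 0.33 ± 0.10, UTP15 by 0.26 ± 0.07 and UTP18 by 0.25 ± 0.07. None of these 4 rises was called after centring. The UTP-A median of 0.12 lay close to the 0.10 of all genes and became -0.08 after centring, and the UTP-B median went from 0.17 to -0.03. UTP6 was at 0.38 ± 0.18 and was not called (adjusted p = 0.066).

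NOP19, an early small-subunit factor, moved most of all upward. It was at 9.84, 9.83 and 9.79 in DMSO and at 10.45, 10.46 and 10.46 with LMT, a rise of 0.64 ± 0.11 without overlap. The lowest was NOP6, another small-subunit protein, at 12.32, 12.32 and 12.24 in DMSO and at 11.59, 11.54 and 11.65 with LMT. It fell by 0.70 ± 0.06 (adjusted p = 4.89e-10), again without overlap. NOP13 changed by -0.56 ± 0.09, NOP7 (the yeast Pescadillo protein) by -0.38 ± 0.09, NOP15 by -0.38 ± 0.07 and NOP16 by -0.37 ± 0.07. RRP42, a ring subunit of the exosome, rose by 0.51 ± 0.08. RRP3, RRP4 and RRP43 rose by 0.17 ± 0.07, 0.19 ± 0.07 and 0.17 ± 0.06, and after centring these values were -0.03, -0.02 and -0.04.

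**Figure D2:**
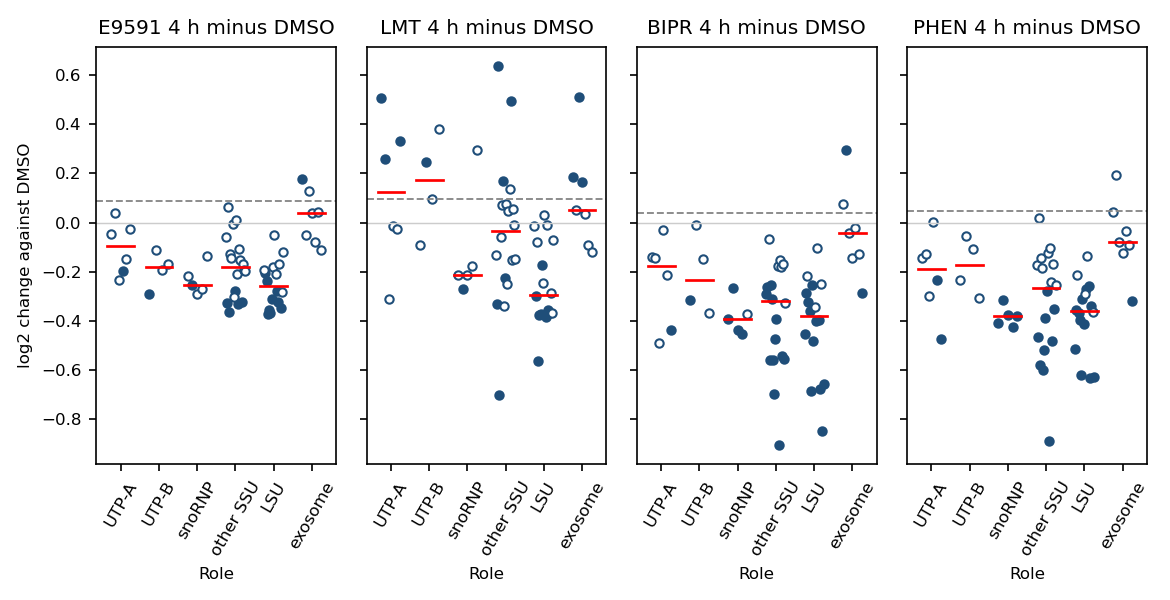
Each point is 1 gene; the vertical axis is the log2 change against DMSO at 4 h and the columns are roles (SSU, small subunit; LSU, large subunit). Filled points were called, open ones were not, red lines are medians and the dashed line is the median of all tested genes; large-subunit medians lie at -0.26, -0.29, -0.38 and -0.36 and exosome medians at 0.04, 0.05, -0.04 and -0.08 for E9591, LMT, BIPR and PHEN.

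At 4 h 10 genes were lower with all 4 compounds: NOP2, NOP13, NOP15, NOP16, NOC3 and RRP1 of the large subunit, NOP6, NOP14 and RRP5 of the small subunit, and NOP10 of the box H/ACA snoRNPs. BIPR and PHEN share 1 DMSO group, and the same count was not made over all tested genes. The E9591 calls of NOC3, NOP14, RRP1 and RRP5 were each lost without some 1 array. So were the LMT calls of NOP2 and RRP5, the BIPR call of NOP14 and the PHEN call of RRP1. NOP6, NOP10, NOP13, NOP15 and NOP16 kept all 4 calls without any 1 array. Another 19 of the 56 genes were lower with none of the compounds at 4 h. The 17 genes lower with E9591 and the 12 lower with LMT shared 10, which is 58.8% and 83.3% of those lists. Neither this overlap nor the 19 was counted over all tested genes, so neither can be called particular to the set. Over the 56 genes the changes with E9591 and LMT, which have separate DMSO groups, had a Pearson r of 0.72 and a Spearman rho of 0.75. Over all 5429 genes r was 0.81, and genes share their arrays, so these values are descriptions only.

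Differences between the effects were tested directly, across experiments whose own variation is not in the p-values. LMT and E9591 effects differed for 7 genes, 6 higher with LMT and 1 lower, against 12.4% and 13.5% of tested genes. Both shares were below those of all genes. The highest differences were UTP22 at 0.65 ± 0.21, NOP19 at 0.58 ± 0.16 and UTP10 at 0.55 ± 0.11, and the lowest were NOP6 at -0.34 ± 0.09 (called), RRP14 at -0.20 and NOP13 at -0.19 (not called). The E9591 effect was higher than the mean chelator effect for 7 genes and lower for 1, against 18.9% and 10% of tested genes. Here too both shares were below those of all genes. Effects are signed, so a higher one can be a weaker fall, as for UTP14, which fell with E9591 and both chelators. RRP3 (0.57 ± 0.09), UTP14 (0.57 ± 0.08) and RRP8 (0.52 ± 0.16) had the highest differences. RRP40 was lowest at -0.30 ± 0.11, followed by UTP5 at -0.18 and NOP8 at -0.16, both uncalled. Without replicate C of the chelators' DMSO group the counts were 12 and 0. The LMT effect exceeded the chelator effect for 19 genes, against 29.6% of tested genes, and was lower for 0, against 21.2%. The share of higher genes thus lay near that of all genes. UTP14 led at 0.94 ± 0.08, ahead of UTP9 (0.79 ± 0.13) and RRP3 (0.75 ± 0.09), and NOP13 was lowest at -0.22, followed by RRP40 at -0.19 and NOP6 at -0.13, none of them called. UTP14 itself was not called with LMT alone, at 0.05 ± 0.06, with levels of 11.13, 11.17 and 11.04 in DMSO and 11.11, 11.17 and 11.19 with LMT.

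Between the 4 h and 15 h DMSO groups nearly the whole set fell. Against the mean of the 3 DMSO groups at 4 h, 55 of 56 genes were lower in DMSO at 15 h and 0 higher, against 42.6% and 48.3% of all tested genes. The median was -1.82 beside 0.12, and 43 genes fell 2-fold or more. Of all 5429 tested genes 1429 fell and 1490 rose by that much. For 47 of the 56 every 15 h DMSO array lay below the range of all 9 DMSO arrays at 4 h, a count not made over all tested genes. The harvest density of the long exposure is not given in the sources used here, so time, density and experiment cannot be told apart. In the same arrays 20 of 20 general stress genes, such as the small heat-shock gene HSP12, were higher, with a median of 3.18.

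The depth of that fall differed by role. The snoRNP genes had a median of -4.05, UTP-B -2.90, UTP-A -2.68, other small-subunit factors -1.80, large-subunit factors -1.63 and the exosome -0.59. Among the snoRNP genes RRP9 and NOP10 fell less, at -2.25 and -1.36. NOP58 lay between 12.99 and 13.46 on the 9 DMSO arrays at 4 h and at 7.61, 8.64 and 8.61 at 15 h. That is a change of -4.98 ± 0.13, a 31.6-fold drop, and no array overlapped. NOP1, the fibrillarin methyltransferase that modifies ribosomal RNA, changed by -4.88 ± 0.09, and NOP56, its partner in box C/D snoRNPs, by -4.05 ± 0.10. UTP4 and UTP18 changed by -3.99 ± 0.17 and -3.50 ± 0.06. RRP4 was the only gene not called, at 0.06 ± 0.06, and the least of the called falls were RRP7 at -0.21 ± 0.06 and NOP16 at -0.23 ± 0.05.

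With E9591 at 15 h all 56 genes were higher than in DMSO at 15 h and 0 were lower, against 45.7% and 42.2% of all tested genes. The median was 2.38 beside 0.05, and 50 genes were higher by 2-fold or more. Of all 5429 tested genes 1474 were higher and 1266 lower by that much. No array of the 3 treated cultures overlapped a DMSO array for any of the 56, which all lay higher. Over all tested genes 45.6% lay wholly higher and 42.5% wholly lower. All 56 calls held without any 1 array and under each other setting tried. These changes use the same DMSO arrays as the fall between 4 h and 15 h, so the 2 sets of values are not independent. Harvest densities of the 15 h cultures are not given, so compound and culture density cannot be told apart.

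The box C/D snoRNP genes NOP58, NOP1 and NOP56 again led. NOP58 was at 13.33, 13.35 and 13.41 with E9591, 5.08 ± 0.16 above DMSO (adjusted p = 1.11e-19). NOP1 was at 13.38, 13.39 and 13.47 against 8.48, 8.79 and 9.02 in DMSO, a difference of 4.65 ± 0.11. NOP56 differed by 4.14 ± 0.13, UTP15 by 4.03 ± 0.07 and UTP18 by 3.96 ± 0.07. The role medians were 4.14 for snoRNP proteins, 3.34 for UTP-B, 3.12 for UTP-A, 2.40 for other small-subunit factors, 1.96 for large-subunit factors and 1.00 for the exosome. The lowest were RRP6 at 0.54 ± 0.06, NOP16 at 0.56 ± 0.07, RRP40 at 0.73 ± 0.08, and RRP4 and RRP7 at 0.76 ± 0.07 each. The effect at 15 h was higher than that at 4 h for all 56 genes, against 39.7% of tested genes, and lower for 0, against 44.9%. The median difference was 2.55. NOP58 (5.35 ± 0.22), NOP1 (4.86 ± 0.16) and NOP56 (4.43 ± 0.18) led that difference, and RRP4 (0.58 ± 0.10), RRP6 (0.65 ± 0.08) and RRP7 (0.75 ± 0.10) were lowest.

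With LMT at 15 h 44 genes were higher and 8 lower than in the same DMSO arrays. Over all tested genes 41.9% were called in each direction. Here too compound and culture density cannot be told apart. The median was 0.96 beside -0.01, and 27 genes were higher by 2-fold or more. Of all 5429 tested genes 1208 were higher and 815 lower by that much. NOP58 was at 12.70, 12.59 and 12.75, which is 4.39 ± 0.16 above DMSO. NOP1 differed by 4.03 ± 0.11, NOP56 by 3.64 ± 0.13, NOP13 by 2.52 ± 0.09 and UTP4 by 2.47 ± 0.21. All 18 UTP genes were higher, with a median of 1.37. The calls of UTP7 (0.40) and UTP20 (0.36) were lost without DMSO replicate A, where these were 0.18 and 0.26.

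The 8 genes lower with LMT than in DMSO at 15 h were mostly RRP genes: RRP4, RRP6 and RRP40 of the exosome, RRP7, RRP8 and RRP14, with NOP16 and NOP19. RRP6 was at 10.49, 10.42 and 10.41 in DMSO, 9.97, 10.02 and 10.00 with LMT, and 10.95, 11.02 and 10.98 with E9591. The 3 groups did not overlap, and LMT differed from DMSO by -0.44 ± 0.06. RRP7, of the UTP-C complex, differed by -0.42 ± 0.07 and RRP4 by -0.35 ± 0.07. RRP4 was at 10.73, 10.73 and 10.75 in DMSO, 10.58, 10.37 and 10.18 with LMT and 11.43, 11.57 and 11.47 with E9591. RRP14 (-0.33 ± 0.10), RRP40 (-0.31 ± 0.08), RRP8 (-0.30 ± 0.12), NOP19 (-0.30 ± 0.11) and NOP16 (-0.18 ± 0.07) completed the list. The calls of RRP8, NOP16 and NOP19 were each lost without some 1 array, with changes of -0.19 to -0.26, -0.12 to -0.14 and -0.21 to -0.26 in those fits. NOP53, RRP15, RRP42 and RRP43 were not called, between 0.09 and 0.22.

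**Figure D3:**
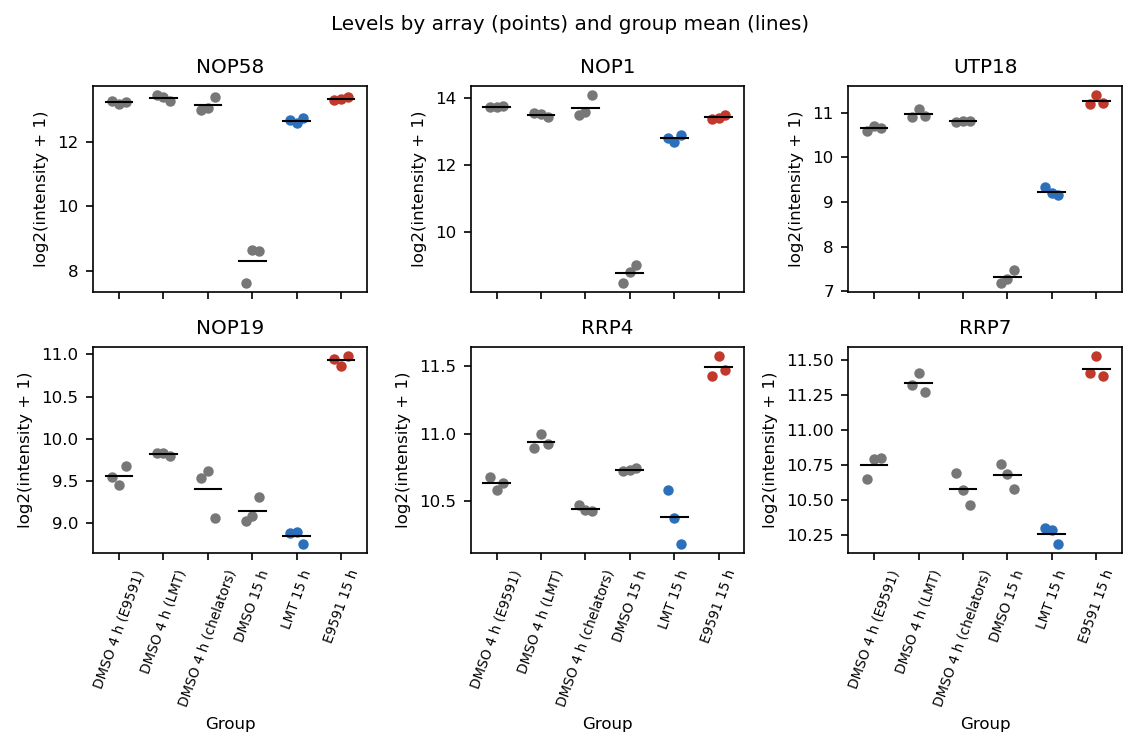
Each point is 1 array and each line a group mean, in log2(intensity + 1), for 6 genes in the 3 DMSO groups at 4 h and the 3 groups at 15 h; each panel has its own vertical scale, which does not start at 0. NOP58, NOP1 and UTP18 fall in DMSO at 15 h and lie between DMSO and E9591 with LMT, whereas NOP19, RRP4 and RRP7 have their lowest group mean with LMT.

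E9591 and LMT differed for every gene of the set at 15 h. LMT was below E9591 for 56 of 56 genes, against 38.6% of tested genes called lower, and above it for 0, against 39.5%. No arrays overlapped for any of the 56. Over all tested genes 39.9% lay wholly lower with LMT and 40.7% wholly higher. The median difference was -1.25 beside 0.00. NOP19 differed most, at -2.08 ± 0.11, followed by UTP18 at -2.05 ± 0.07 and UTP9 at -2.02 ± 0.10. NOP13 differed least, at -0.37 ± 0.09, then NOP56 at -0.49 ± 0.13 and NOP1 at -0.62 ± 0.11. The array order was DMSO below LMT below E9591 for 44 genes and LMT below DMSO below E9591 for 7. Such orders were not counted over all tested genes. Each compound was used at its own IC50, so this compares those cultures and not equal doses.

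The LMT effect, with its sign, was higher at 15 h than at 4 h for 43 genes and lower for 6, against 38.1% and 44.7% of tested genes. NOP58 (4.57 ± 0.22), NOP1 (4.24 ± 0.16) and NOP56 (3.86 ± 0.18) led. NOP19 was the furthest downward, at -0.94 ± 0.16, since it was above DMSO at 4 h and below it at 15 h. RRP4 (-0.54 ± 0.10) and RRP7 (-0.49 ± 0.10) followed, and the other 3 with a lower effect at 15 h were RRP6, RRP40 and RRP42, so 4 of the 6 belong to the exosome.

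Long cultures were also set against DMSO at 4 h rather than at 15 h, a comparison added after the data were seen. With E9591 most genes of the set lay above the mean of the short controls. The median was 0.42 beside 0.10, with 41 genes higher and 3 lower, against 46.1% and 33.6% of tested genes. The array medians with E9591 at 15 h (0.78 to 1.02) overlapped those of DMSO beside LMT at 4 h (0.76 to 0.91). They lay above those of DMSO beside E9591 at 4 h (0.29 to 0.31) and beside the chelators (0.24 to 0.38). For 18 of the 56 all 3 E9591 arrays lay within the range of the 9 DMSO arrays at 4 h, for 15 above it and for 0 below it. NOP19 was furthest above, at 1.33 ± 0.09, and NOP13 furthest below, at -0.40 ± 0.07. After centring the falls numbered 11 and the median was 0.19. Long LMT cultures were lower than DMSO at 4 h for 55 of 56 genes, against 34.3% of tested genes, with a median of -0.85, and 0 were higher, against 46.2%. The exception was NOP53, at -0.09 ± 0.13. For 46 of the 56 all 3 LMT arrays lay below the 4 h range. These range counts were not made over all tested genes.

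Those comparisons rest on control groups that differed among themselves. In DMSO beside LMT 41 genes were higher and 2 lower than in the other 4 h DMSO groups, against 35.8% and 29.7% of tested genes, with a median of 0.53 beside 0.03. RRP36 was at 10.07, 10.20 and 10.06 there, at 8.41, 8.41 and 8.55 beside E9591 and at 8.32, 8.15 and 8.16 beside the chelators. The difference of 1.78 ± 0.16 is larger than any change of the set at 4 h under a compound. NOP53 (1.51 ± 0.14) and RRP8 (1.27 ± 0.10) followed, and the 2 lower were RRP6 at -0.29 ± 0.05 and NOP1 at -0.23 ± 0.10, the latter lost without any of 7 arrays. Experiment and DMSO group cannot be told apart here.

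Other genes of the pathway were read on the same arrays. Of 76 other ribosome assembly factors tested, 47 fell with E9591 at 4 h and 0 rose, and 28 fell and 7 rose with LMT. With BIPR 51 fell and with PHEN 47, with 0 rises for each chelator. Over all tested genes 11.3%, 25.2%, 18.5% and 19.7% were lower with E9591, LMT, BIPR and PHEN. In the same order 32%, 40.4%, 27.7% and 29.2% were higher. At 15 h 76 of 76 were higher with E9591 (median 2.56) and 68 higher and 2 lower with LMT (median 1.13). RNA polymerase I subunits and factors, 14 genes, had 12 higher and 1 lower with E9591 at 15 h, and 8 and 5 with LMT. Among 7 exosome genes outside the RRP name, 6 were higher and 1 lower with E9591 at 15 h. Of all tested genes 45.7% were higher and 42.2% lower with E9591 at 15 h, and with LMT 41.9% were called each way.

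The 122 ribosomal protein genes differed from the assembly factors in LMT minus E9591 at 15 h. All 122 were higher than DMSO with E9591 (median 2.79), and 120 with LMT (median 2.44), against 45.7% and 41.9% of tested genes. In the direct comparison 49 were lower with LMT and 0 higher, against 38.6% and 39.5% of tested genes. The share of lower genes thus lay near that of all genes. The median was -0.25, whereas the 56 assembly genes had a median of -1.25. The difference between these sets was not itself tested. General stress genes moved the other way in the same contrast, 20 of 20 higher with LMT (median 2.74). At 4 h, 15 of the 20 were higher and 2 lower with BIPR, 13 and 2 with PHEN, 9 and 2 with LMT and 6 and 0 with E9591. Over all tested genes 27.7%, 29.2%, 40.4% and 32% were higher in these contrasts, so the LMT and E9591 shares of higher stress genes lay near the background. The array medians of the stress genes still rose without overlap, from a mean of -0.59 to -0.15 with E9591 and from -1.53 to -1.09 with LMT. Over all tested genes these means went from -0.04 to 0.10 and from 0.02 to 0.17. The part of the stress genes in the changes of the 56 genes was not tested.

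Transcripts of 10 known regulators were read as well. Calls were common: 32%, 40.4%, 27.7% and 29.2% of all tested genes were higher at 4 h with E9591, LMT, BIPR and PHEN. At 15 h 45.7% were higher and 42.2% lower with E9591, and 41.9% were called each way with LMT. A call alone thus does not set a regulator apart. CRF1, a corepressor of ribosomal protein genes, rose at 4 h with E9591 (1.83), LMT (1.97), BIPR (1.41) and PHEN (1.49). At 15 h it was lower than DMSO with E9591 (-3.07) and LMT (-3.25), after being 4.51 higher in DMSO at 15 h than at 4 h. DOT6, which represses assembly genes through their promoters, rose at 4 h with all 4 compounds, by 0.28, 0.54, 0.27 and 0.23, each ± 0.08. At 15 h it was uncalled with E9591 (-0.10) and lower with LMT (-0.31). Its relative TOD6 was higher than in DMSO with LMT at 4 h (0.78) and with E9591 at 15 h (2.11), and lower with LMT at 15 h (-0.37). SFP1, an activator of the same genes, rose at 4 h with E9591 (0.47), LMT (0.82) and BIPR (0.33) and was uncalled with PHEN (0.17). It was higher with E9591 at 15 h (0.70) and lower with LMT (-0.63). STB3, a repressor that binds their promoters, was lower with both at 15 h (-2.15 and -1.14) and uncalled at 4 h (-0.09 to 0.14). IFH1, an activator of ribosomal protein genes, rose at 4 h with LMT (0.73), BIPR (0.26) and PHEN (0.47) and was uncalled with E9591 (0.08). It was higher at 15 h with both (2.42 and 0.26). TOR2 rose at 4 h with all 4 compounds (0.33, 0.60, 0.31 and 0.35). It was uncalled at 15 h with E9591 (-0.11) and lower with LMT (-0.59). TOR1 rose at 4 h with LMT (0.23), fell with BIPR (-0.41) and PHEN (-0.38), and was uncalled with E9591 (0.06). FHL1 rose at 4 h with E9591 (0.29) only, and was lower at 15 h with LMT (-0.84) only. SCH9 was uncalled at 4 h (-0.30 to -0.09). At 15 h TOR1 and SCH9 were lower with E9591 (-0.93, -1.14) and LMT (-0.32, -1.46).

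**Figure D4:**
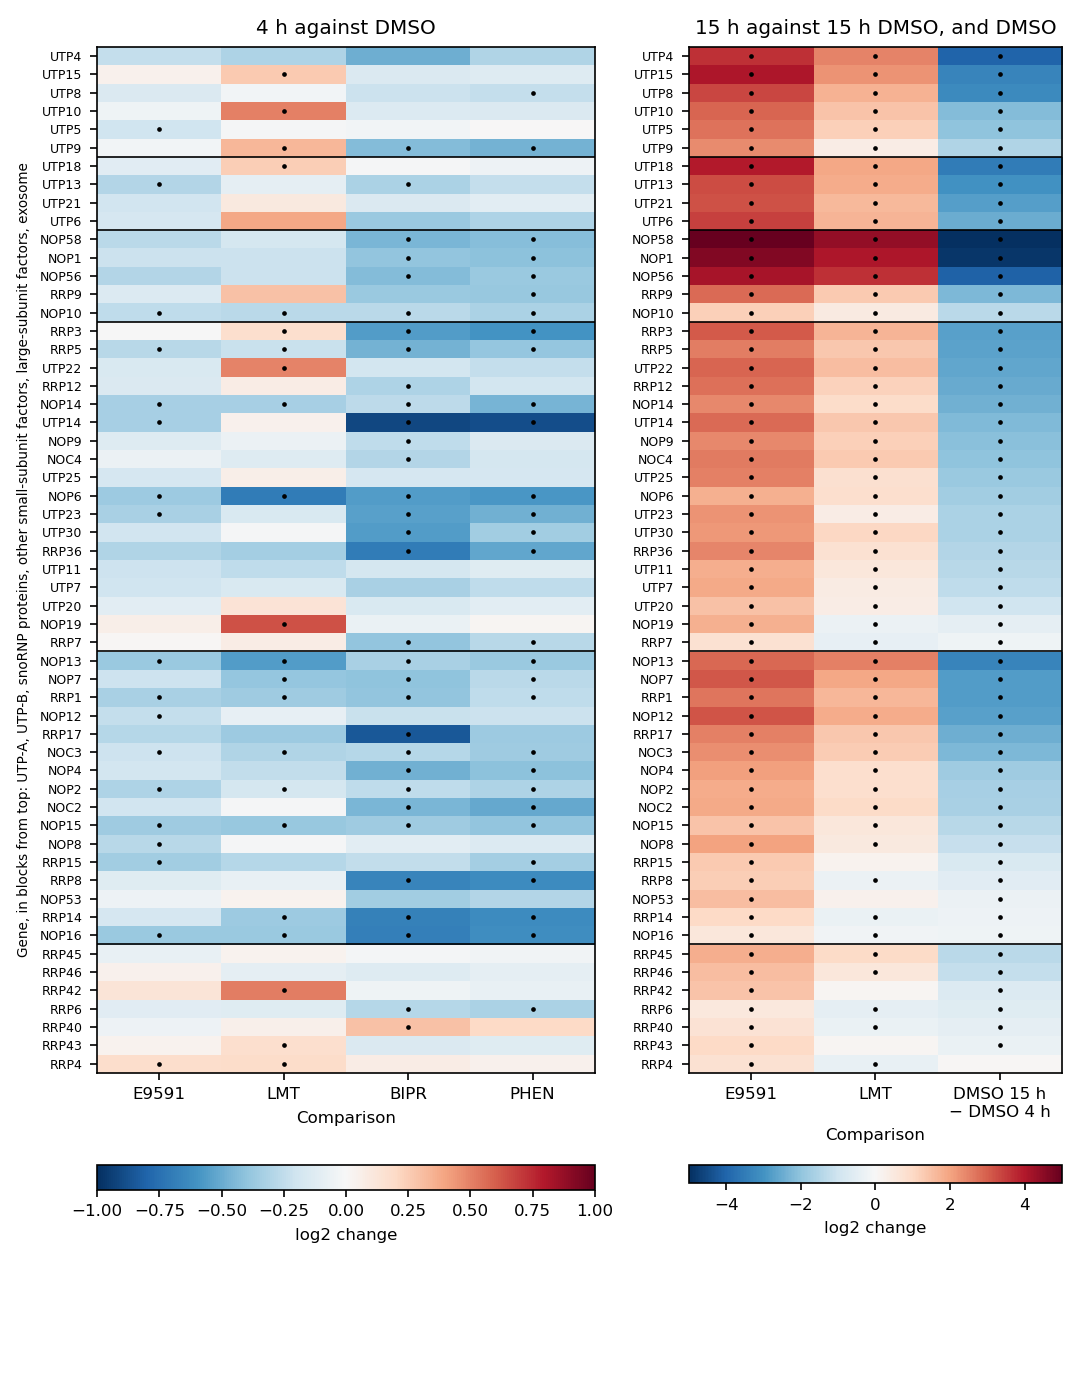
Rows are the 56 genes in blocks by role, ordered within a block by the fall in DMSO; colours are log2 changes at 4 h against DMSO (left, scale from -1 to 1) and at 15 h against DMSO, with DMSO at 15 h minus 4 h (right, scale from -5 to 5), and dots mark called changes. The snoRNP block holds the deepest colours at 15 h, with NOP58 at 5.08 and 4.39 and at -4.98 in DMSO, and the exosome block the palest.

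The set is scattered over the genome. In the order of genes in assembly R64 the 56 genes lie on 14 chromosomes. Only 1 pair of them is adjacent, RRP15 and NOC4 on chromosome XVI, and 2 others neighbour another assembly gene: RRP3 beside SSF1 and UTP9 beside RIX1, both on chromosome VIII. RRP15 and NOC4 differed in size at 15 h with E9591, at 1.32 ± 0.13 and 2.60 ± 0.11.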

How the data were processed

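The authors deposited 1 table of intensity values on a linear scale, 10928 probe sets by 30 one-colour arrays, hybridised with biotin-labelled cRNA per the labels' protocols. Each array has a 2% trimmed mean near 1000.5, and how probe values were summarised and background-corrected is not given in the sources used here. The platform annotation gave 5498 probe sets 1 S. cerevisiae gene each; the highest-mean probe set was kept where a gene had more. The floor was the 95th percentile of other-species probe sets on an array, and 5429 genes above it on at least 3 arrays were tested.

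Values were taken as log2(intensity + 1), a pseudocount of 1, and fitted with limma 3.58.1 (R 4.3.3) to the 30 arrays together, 1 coefficient a group and no block (20 residual degrees of freedom), with two-sided Benjamini-Hochberg adjusted p-values. The labels call the cultures biological replicates, and the p-values reflect that spread. In simulated data for E9591 at 4 h over 5429 genes, the fit called 36% of changes of 0.25, 92% of 0.5 and 100% of 1 or 2. The simulation had independent noise and 50 changed genes of each size, whereas 1736 genes were called higher and 614 lower in the data. The adjusted threshold is looser with more changed genes, so these shares need not hold for the data.

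Named genes were the 5 lowest and 5 highest per treatment, called genes opposite to the majority, and the 3 furthest each way for differences of effects; others are named after their values were seen. The members and lists were chosen with earlier results of these data known. Other pseudocounts, low-value filters, quantile and median scaling, array weights, a trended prior, separate experiments, probe-set means, a replicate block and leaving out each array were tried.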

Additional observations from a re-analysis of the deposited data

Results flagged for a closer look

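The effect of E9591 and that of LMT on the 56 genes was tested for a difference between 4 h and 15 h. For E9591 the effect was higher at 15 h for 56 genes and lower for 0. For LMT it was higher for 43 and lower for 6. These are interaction contrasts of limma across separate experiments, and the 4 h and 15 h DMSO groups themselves differed for 55 of the 56 genes.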

How the results depend on the processing

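Of 1038 values under alternatives, for 51 counts and medians, 82 moved, and 0 reversed beyond the spread between replicates. The PHEN minus BIPR median, which lay within that spread, changed sign in 3 settings (centring, without BIPR replicate B and without PHEN replicate C; lowest -0.0076). E9591 at 4 h gave 26 falls and 0 rises with quantile scaling (median -0.24), 38 and 0 with centring (-0.35), 27 falls and 2 rises with array weights, 28 falls in its own experiment alone, and 0 rises with the replicate block. Without 1 array it gave 10 to 17 falls and 0 to 0 rises. LMT at 4 h gave 6 rises with quantile scaling, 33 falls and 3 rises with centring (-0.28) and 21 falls with array weights. BIPR had a median of -0.39 after centring, and 0 rises with array weights, in its own experiment alone and without DMSO replicate C (0 to 1 over single arrays). PHEN gave 44 falls with quantile scaling, a median of -0.39 after centring, and 1 rise with a trended prior or without some arrays (0 to 1; median -0.34 to -0.23). At 15 h quantile scaling gave medians of 2.24 with E9591 and 0.84 with LMT. LMT minus E9591 effects at 4 h had 12 higher genes with quantile scaling (median 0.16), 12 in own experiments and 2 lower with array weights. E9591 minus chelator effects had 2 lower genes and a median of 0.0497 after centring, 0 lower, 13 higher and 0.17 with array weights, 0 lower in own experiments or with the replicate block, and 0 to 1 lower and 5 to 12 higher without 1 array. LMT minus chelator effects had 3 lower genes and a median of 0.0859 after centring, and medians of 0.17 to 0.27 without 1 array. The LMT effect at 15 h minus 4 h had medians of 0.89 (quantile), 1.16 (centring) and 0.92 to 1.12 (without 1 array). DMSO at 15 h minus 4 h had -1.95 after centring. DMSO beside LMT had medians of 0.41 (quantile) and 0.47 (centring), with 4 lower genes after centring, 1 with array weights, 1 with the replicate block and 1 to 2 without 1 array. E9591 at 15 h against DMSO at 4 h had medians of 0.33 (quantile) and 0.19 (centring), 11 lower genes after centring, 6 with array weights and 1 to 4 without 1 array, the 1 being without E9591 replicate A. LMT at 15 h against DMSO at 4 h had -0.99 (quantile) and -1.06 (centring). The replicate block changed no other count by over 1.5 times. Deviations of same-lettered arrays from their group means correlated at -0.09 to 0.33 across genes, every array correlated best with its own letter in 1 of 8 pairs of groups, and the letters were not taken as pairs. The cause of these moves was not tested, except that centring shifts all genes of a contrast equally.

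With 3 arrays a group, a 4 h change near 0.25 can be missed, so a gene not called at 4 h may still differ. The medians over the 56 genes at 4 h against DMSO kept their direction in every setting tried, but those of UTP-A and UTP-B with LMT changed sign after centring, and counts of calls at 4 h followed the scaling. At 15 h 56 genes were called higher with E9591 than in DMSO, and 56 lower with LMT than with E9591, in each setting.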
